A study of Danio rerio with 10 samples.

Results

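The genes described here encode the machinery that lets RNA polymerase II leave the start of a gene and elongate: the kinase cdk9, its cyclin partners ccnt1 and ccnt2b, their inhibitor hexim1, the small RNA rn7sk (7SK), and the elongation factors supt5h and supt6h. They were chosen by symbol from a table of 32574 zebrafish (Danio rerio) genes, of which 20901 carry a symbol, and 5 of the 7 symbols matched: cdk9, ccnt1, rn7sk, supt5h and supt6h. The symbols ccnt2b and hexim1 matched no gene ID and have no value of their own here. The choice was made with earlier results of these libraries known, so the levels of the 5 are given as a description, without a test.

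RNA was sequenced from 10 stages with 1 library each: sperm cells, oocytes, embryos of 1, 4, 16, 64, 128, 256 and 1000 cells, and sphere, a blastula stage after the 1000-cell embryo. The labels give no strain, sex, age, number of animals or treatment, and they name no mutation or agent for any group. The deposited table gives RPKM, a read number divided by gene length and by the reads of the library. Differences of RPKM between libraries still depend on how the libraries are scaled, as given below. The read numbers behind the RPKM were recovered from the values, and library totals ran from 37762530 reads (1-cell) to 113972795 reads (4-cell). With 1 library per stage there is no replicate spread, so each 95% interval below covers counting error only, and a difference beyond it may still be one between libraries.

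In animal cells RNA polymerase II often stops shortly after it has started, held by DSIF (Spt4 and Spt5) and NELF. P-TEFb, the pair of Cdk9 and a T-type cyclin, phosphorylates DSIF, NELF and the tail of the polymerase and so releases it, after which Spt5 and Spt6 travel with the elongating enzyme. A complex of 7SK RNA with Larp7, Mepce and Hexim proteins holds part of P-TEFb inactive, while BET proteins and the super elongation complex bring it to genes. A fish embryo runs its first divisions on maternal RNA and begins broad transcription of its own genome around the midblastula stages.

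Marker genes were read before the members. In the library labelled sperm, 9 of 10 sperm and spermatid markers were at 1 RPKM or more with a summed level of 989 RPKM, against 6.89 to 40.5 RPKM in the other 9 libraries. The same library also held all 11 markers of testis somatic cells at 1 RPKM or more, summed to 1489 RPKM against 29.1 to 61.9 RPKM elsewhere. The highest were insl3 of Leydig cells (430 RPKM) and gsdf of Sertoli cells (312 RPKM). Others were less confined to sperm: CYP17A1 was at 62.2 RPKM there against 25.9 to 52.6 RPKM elsewhere. A SOX9 gene (ENSDARG00000043923) was at 1.68 RPKM in sperm, below its 6.20 RPKM at 1000-cell. All 6 markers of male germ cells were at 1 RPKM or more in the sperm library too, summed to 2392 RPKM against 38.4 to 141 RPKM elsewhere. Among them were SYCP3 (472 RPKM) and DMC1 (241 RPKM). DDX4 and PIWIL1 of this list were less confined to sperm. DDX4 was at 335 RPKM there against 29.3 to 118 RPKM elsewhere, and PIWIL1 at 413 RPKM against 1.73 to 19.7 RPKM. The part of somatic cells, and of germ cells other than sperm, in the sperm values below was not tested. In bulk RNA, fewer cells of a type and less RNA per cell cannot be told apart. The oocyte markers were all at 1 RPKM or more in the oocyte and in each embryo library, and 4 of the 7 were in sperm too. They summed to 82.6 RPKM in sperm against 285 to 2379 RPKM elsewhere. Their courses differed: org was at 2292 RPKM at 1-cell and 101 RPKM at sphere, and buc at 10.1 RPKM and 78.2 RPKM. Markers of superficial epithelium, 7 in the list, summed to 424 RPKM in sperm and 412 RPKM in oocytes, to 1.03 RPKM at 1-cell, to 11.5 to 52.2 RPKM from 4-cell to 1000-cell and to 185 RPKM at sphere. In the oocyte library 6 of the 7 were at 1 RPKM or more and krt92 was at 0, and in the 1-cell library none was at 1 RPKM. These markers move with the comparisons that use the oocyte or the 1-cell library, and their part in them was not tested. A list of 7 early zygotic genes summed to between 0.252 and 1.61 RPKM in the embryo libraries up to the 256-cell stage. The sum was 17.7 RPKM at 1000-cell, mostly from klf17 (12.7 RPKM) and her5 (3.77 RPKM), and 280 RPKM at sphere. TBXT and FOXD3 of this list were still at 0.0587 and 0.0277 RPKM at sphere. Changes before the 1000-cell stage were thus measured while the listed genes were near 0.

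The kinase transcript, cdk9 (ENSDARG00000044811), was lowest in the 1-cell embryo and abundant from the 16-cell embryo on. Its level was 30.8 RPKM in sperm and 1.53 RPKM in oocytes. In the embryos it was 0.535 RPKM (1-cell), 7.01 (4-cell), 88.0 (16-cell), 61.6 (64-cell), 83.8 (128-cell), 106 (256-cell), 113 (1000-cell) and 137 RPKM (sphere). Sphere was the highest and 1-cell the lowest of the 10 libraries, and the 16-cell value stood above those of the 64-cell and 128-cell embryos. These levels rest on 36 reads at 1-cell, 149 in oocytes and at least 1424 in every other library. In the order of the 10 levels, every library differed from its neighbour beyond counting error, down to the 1.05-fold step between 16-cell and 128-cell (1.02 to 1.08).

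**Figure D1:**
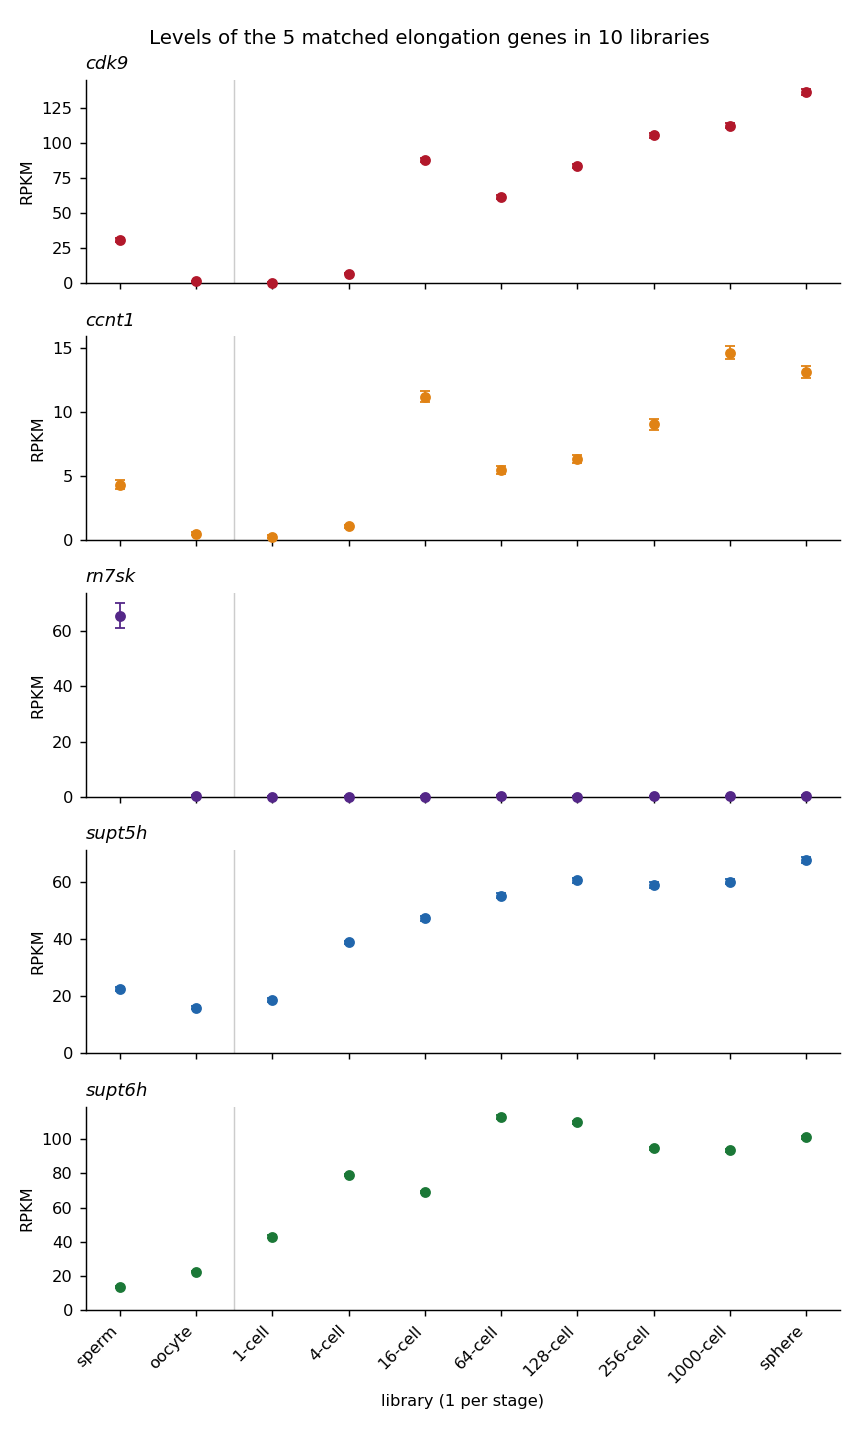
Levels in RPKM of cdk9, ccnt1, rn7sk, supt5h and supt6h (1 panel each, linear axes) in the 10 libraries, with bars for exact 95% Poisson intervals that cover counting error only. cdk9 and ccnt1 stand low in the oocyte, 1-cell and 4-cell libraries and high from 16-cell on, rn7sk has reads almost only in sperm, and supt5h and supt6h climb less from a higher 1-cell level.

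Most of the cdk9 increase fell in 2 steps. On the log2(RPKM + 1) scale, on which all differences below are given, the 4-cell against 1-cell step was 2.38 and the 16-cell against 4-cell step 3.47, which is 36.8% and 53.6% of the whole difference between sphere and 1-cell. As folds of RPKM, the 4-cell level was 13.1-fold the 1-cell level (9.42 to 18.8) and the 16-cell level 12.6-fold the 4-cell level (11.9 to 13.3). The next step went the other way: 61.6 RPKM at 64-cell against 88.0 RPKM at 16-cell. From 64-cell to sphere the 4 steps were each positive and between 0.09 and 0.44. At sphere cdk9 was 255-fold above the 1-cell level (184 to 365) and stood above 98.7% of all genes in that library by RPKM, against 69.7% in the 1-cell library. The library kit is designed to select RNA with a poly(A) tail, so more molecules and longer tails cannot be told apart in these differences.

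ccnt1 (ENSDARG00000017525) encodes cyclin T1, the activating partner of the kinase, and its transcript moved through the same stages at a lower level. It was at 4.32 RPKM in sperm and 0.472 RPKM in oocytes. The embryos held 0.270 RPKM (1-cell), 1.07 (4-cell), 11.2 (16-cell), 5.48 (64-cell), 6.31 (128-cell), 9.03 (256-cell), 14.6 (1000-cell) and 13.1 RPKM (sphere). Here the 1000-cell library was the highest, and the 16-cell value exceeded those at 64, 128 and 256 cells. The 1-cell level rests on 30 reads. All neighbours in the order of levels were apart beyond counting error. The largest step was 16-cell against 4-cell, a 10.5-fold difference (9.36 to 11.7), and it was followed by a 64-cell level 2.04-fold lower than the 16-cell level (1.90 to 2.19).

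The partner cyclin T2 could be followed only by its shared symbol. Zebrafish has 2 genes for it, ccnt2a and ccnt2b, and 2 gene IDs of the table carry the symbol CCNT2, with nothing in the sources used here to say which of them is ccnt2b. ENSDARG00000036510 was at 24.4 RPKM in sperm, 17.9 in oocytes, 26.8 (1-cell), 81.1 (4-cell), 119 (16-cell), 134 (64-cell), 156 (128-cell), 162 (256-cell), 156 (1000-cell) and 159 RPKM (sphere). This was the most abundant of the T-type cyclin transcripts in all 10 libraries and was already present in the oocyte. ENSDARG00000036685 was at 15.2 RPKM in sperm, 3.64 in oocytes, 3.28 (1-cell), 5.33 (4-cell), 14.9 (16-cell), 8.72 (64-cell), 11.1 (128-cell), 12.4 (256-cell), 15.5 (1000-cell) and 18.4 RPKM (sphere). Like ccnt1, it was higher at 16-cell than at 64-cell.

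Set against its cyclins, the kinase transcript was scarce in the oocyte and first cleavages. The ratio of cdk9 RPKM to the summed RPKM of ccnt1 and both CCNT2 IDs was 0.699 in sperm, 0.0695 in oocytes, 0.0176 at 1-cell and 0.0802 at 4-cell. It was 0.607 (16-cell), 0.415 (64-cell), 0.483 (128-cell), 0.576 (256-cell), 0.605 (1000-cell) and 0.715 (sphere). The cyclin sum itself was 191 RPKM at sphere against 30.3 RPKM at 1-cell, a smaller relative difference than that of the kinase. These are ratios of transcripts and say nothing of protein.

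**Figure D2:**
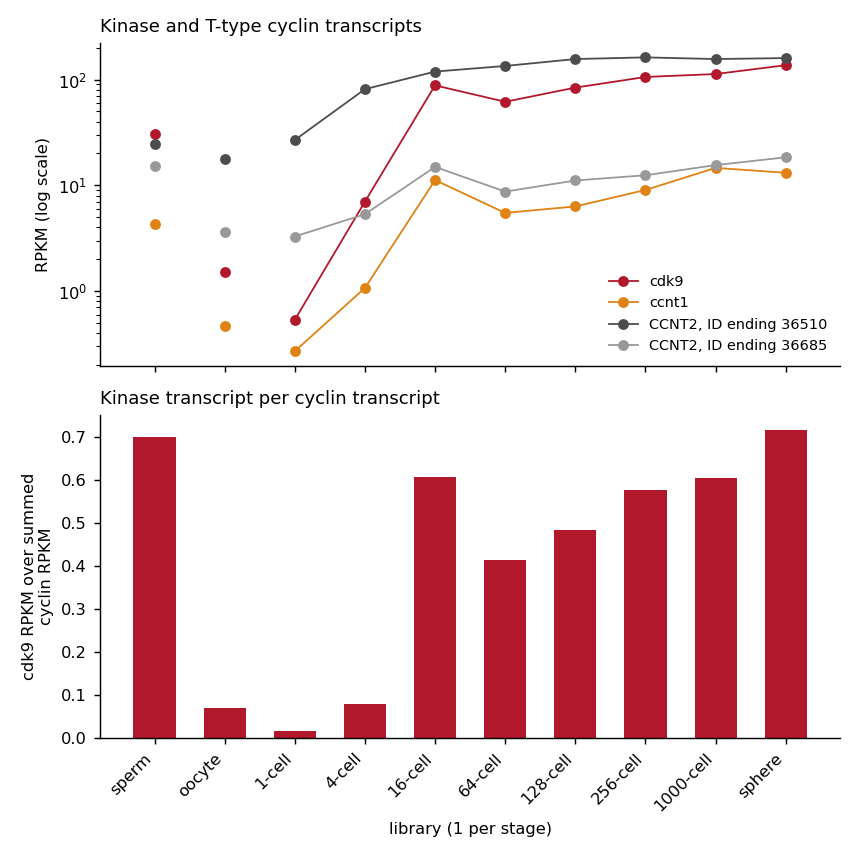
Upper panel, RPKM on a log axis of cdk9, ccnt1 and the 2 gene IDs named CCNT2 in the 10 libraries, with embryo stages joined by lines; lower panel, cdk9 RPKM over the summed RPKM of the 3 cyclin genes. The ratio is 0.0176 at 1-cell and between 0.415 and 0.715 from 16-cell to sphere.

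The inhibitory RNA of the kinase, rn7sk (ENSDARG00000081270), had reads almost only in sperm. It was at 65.6 RPKM there, from 837 reads, against 0.170 RPKM in oocytes from 3 reads. The embryo libraries held 0 reads at 1-cell, 3 (4-cell), 1 (16-cell), 9 (64-cell), 2 (128-cell), 2 (256-cell), 4 (1000-cell) and 11 (sphere), at most 0.426 RPKM. A count of 0 reads at 1-cell allows up to 0.247 RPKM (3 reads), and the upper end of its exact interval, which is two-sided, is 0.303 RPKM. Outside sperm no neighbours in the order of levels were apart beyond counting error. Farther apart in that order, the 64-cell level was 8.93-fold the 16-cell level (1.24 to 392), and the 11 reads at sphere lay beyond the counting error of the 0 at 1-cell. A second gene ID with the symbol 7SK, ENSDARG00000083675, was at 0 in all 10 libraries.

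7SK is made by RNA polymerase III and has no poly(A) tail, while the TruSeq RNA v2 kit named in the labels is designed to select RNA with one, so these reads are no measure of how much 7SK the cells held. Small structured RNAs, picked after the rn7sk values were seen, were each highest in sperm too, but to unequal degrees. The signal recognition particle RNA rn7sl1 was at 770 RPKM in sperm against at most 5.01 RPKM in the other 9 libraries. rmrp, the RNA of RNase MRP, was at 6.21 RPKM in sperm and 0 in the rest, and 5 gene IDs named U2, a spliceosome RNA that polymerase II makes, summed to 24.7 RPKM in sperm against at most 0.344 RPKM elsewhere. The others were less confined to sperm. The polymerase III transcripts U6, of the spliceosome, and 5S ribosomal RNA summed to 12.1 RPKM in sperm against 0.171 to 2.84 RPKM elsewhere and to 39.5 RPKM against 1.33 to 18.0 RPKM, and rpph1, the RNA of RNase P, was at 2.50 RPKM in sperm against 0.175 to 1.23 RPKM. Their part in the rn7sk difference was not tested.

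Transcripts of the protein partners of 7SK were not confined to sperm. LARP7, which binds the 3′ end of 7SK, was at 30.6 RPKM in sperm, 258 in oocytes, 199 (1-cell), 199 (4-cell), 36.7 (16-cell), 126 (64-cell), 129 (128-cell), 147 (256-cell), 108 (1000-cell) and 119 RPKM (sphere). Its 16-cell level was 5.42-fold lower than its 4-cell level and lower than that of any other embryo library. The methyltransferase that caps 7SK is represented by 2 gene IDs named MEPCE. ENSDARG00000059461 was at 127 RPKM at 1000-cell against 13.3 RPKM at 1-cell, and ENSDARG00000035771 at 145 RPKM against 32.1 RPKM. HEXIM2, a relative of the unmatched inhibitor hexim1 in mammals, was looked at after the values were seen. Nothing in the sources used here says whether this gene ID is the one meant by hexim1 in zebrafish. HEXIM2 was highest in sperm, at 68.7 RPKM, and at 4.05 RPKM in oocytes, 4.08 at 1-cell, 38.5 at 16-cell and 49.4 RPKM at sphere.

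supt5h (ENSDARG00000042724) encodes Spt5, the large DSIF subunit and a substrate of the kinase. Its transcript was at 22.4 RPKM in sperm and 16.0 RPKM in oocytes. In the embryos it was at 18.6 RPKM (1-cell), 38.8 (4-cell), 47.1 (16-cell), 55.1 (64-cell), 60.4 (128-cell), 58.8 (256-cell), 59.9 (1000-cell) and 67.5 RPKM (sphere). The oocyte was the lowest library and sphere the highest, with no peak at 16-cell. The 128-cell and 1000-cell levels, and the 1000-cell and 256-cell levels, were not apart beyond counting error. Of the difference between sphere and 1-cell, 56.7% lay in the 4-cell against 1-cell step.

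supt6h (ENSDARG00000006524) encodes Spt6, a histone chaperone of the elongating polymerase, and was the highest of the 5 in the oocyte, 1-cell, 4-cell, 64-cell and 128-cell libraries. It was at 13.6 RPKM in sperm and 22.6 RPKM in oocytes. The embryos held 43.0 RPKM (1-cell), 79.1 (4-cell), 69.1 (16-cell), 113 (64-cell), 110 (128-cell), 94.7 (256-cell), 93.7 (1000-cell) and 101 RPKM (sphere). Sperm was the lowest library and 64-cell the highest, and the 16-cell value stood below both of its neighbours. The 256-cell and 1000-cell levels were not apart beyond counting error. It was 1.90-fold higher in 1-cell embryos than in oocytes (1.84 to 1.96), whereas cdk9 was lower in 1-cell embryos. ccnt1 was under 1 RPKM in both libraries, too low for the comparisons of libraries below.

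The 16-cell library thus stood out in different directions for different members: cdk9 and ccnt1 were above both neighbouring stages there, supt6h below both, and supt5h between them. Over all genes at 1 RPKM or more in one of the 3 libraries, 56.1% of 12749 were above both neighbours at 16-cell and 19.9% below both. Of 54 other elongation genes the shares were 37.0% and 29.6%. A property of that 1 library and a property of the stage cannot be told apart.

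For each pair of libraries, genes with at least 1 RPKM in either were compared, and a difference of 2 or more in log2(RPKM + 1), which is 4-fold on that scale, was counted as higher or lower. This is a rule of size, not a test. In 128-cell against 1-cell embryos, cdk9 and ccnt1 were past it among the 4 members measured, in a comparison in which 25.7% of all 12336 genes were higher and 2.43% lower by the same rule. cdk9 was at 83.8 RPKM in the 128-cell library against 0.535 RPKM in the 1-cell library, and its difference of 5.79 ranked 2 of 12336. ccnt1 was at 6.31 RPKM against 0.270 RPKM, a 23.4-fold level (16.3 to 34.8) and a difference of 2.53. supt5h and supt6h were at 3.25-fold (3.12 to 3.38) and 2.56-fold (2.51 to 2.61) their 1-cell levels, differences of 1.65 and 1.33 beside a median of 1.13 over all genes.

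These differences depend on how libraries are scaled. Scaling the RPKM by median ratios over the 16807 genes above 0 in all 10 libraries moved the median of all genes in this comparison to -0.16. On that scale cdk9 differed by 4.82, still past the rule, and ccnt1 by 1.83, no longer past it. supt5h differed by -0.02 and supt6h by -0.36 on it, so their direction turned. With such scaling over only the genes at 5 RPKM or more in every library, an alternative chosen after seeing the data, the median of all genes was 0.95, and the 4 members differed by 5.57, 2.35, 1.37 and 1.05 in the same order. Without scaling but with 5 RPKM added before the logarithm, ccnt1 differed by 1.10, within the rule.

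**Figure D3:**
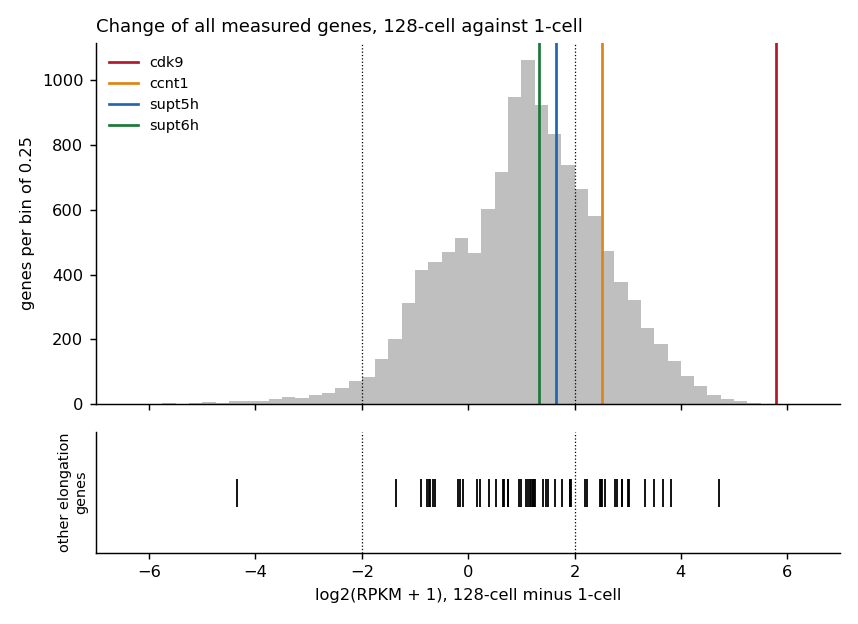
Histogram of log2(RPKM + 1) in the 128-cell library minus the 1-cell library for 12336 genes (genes per bin on the vertical axis), with coloured lines for cdk9, ccnt1, supt5h and supt6h, ticks below for 54 other elongation genes and dotted lines at the 4-fold rule. cdk9 lies at 5.79, at the right end of the distribution, ccnt1 at 2.53, and supt5h and supt6h near its middle.

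In sperm against oocytes, cdk9 and rn7sk were past the rule among the 5 members, where 31.5% of 17364 genes were higher and 9.08% lower. cdk9 was 20.1-fold higher in sperm (17.0 to 23.9). rn7sk was 385-fold higher (131 to 1871), with a difference of 5.83 that rests on 3 oocyte reads. ccnt1 was at 4.32 RPKM in sperm against 0.472 RPKM in oocytes, a difference of 1.85 that stayed within the rule. supt6h went the other way, 1.66-fold lower in sperm (1.59 to 1.73).

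In 1-cell embryos against oocytes no member was past the rule, beside 1.06% of 10373 genes higher and 3.4% lower. cdk9 was at 0.535 RPKM in 1-cell embryos against 1.53 RPKM in oocytes, 2.86-fold lower (1.98 to 4.24). The epithelium markers were lower there as well, at 1.03 RPKM in 1-cell embryos against 412 RPKM in oocytes. In 4-cell against 1-cell embryos cdk9 alone of the members was past the rule, beside 2.15% higher and 0.355% lower of 10434 genes, and it was no longer past it with 5 RPKM added before the logarithm (1.12). In 16-cell against 4-cell embryos cdk9 and ccnt1 were past it, beside 10.7% higher and 0.587% lower of 12606 genes. There ccnt1 was no longer past the rule after median ratio scaling (1.85) or with 5 RPKM added (1.42). In 1000-cell against 128-cell embryos none was, beside 0.141% higher and 0.00784% lower of 12749 genes. ccnt1 had the largest difference of the members there, at 14.6 RPKM in 1000-cell against 6.31 RPKM in 128-cell embryos. In sphere against 1000-cell embryos none was past the rule either, beside 4.06% higher and 0.415% lower of 13983 genes.

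The wider pathway was read from lists of elongation genes, which gave 56 gene IDs besides the members. In 128-cell against 1-cell embryos, 17 of 54 measured were higher and 1 lower (31.5% higher, beside 25.7% of all genes), with a median difference of 1.23 beside 1.13. After median ratio scaling 4 were higher and 8 lower, beside 7.71% and 16.5% of all genes, and after such scaling over genes at 5 RPKM in every library 16 of 53 and 1, beside 21.4% and 3.2%. Taking the 4-cell embryo as the baseline, 3 were higher and 1 lower, beside 6.31% and 0.855% of all genes. Taking the 16-cell embryo, none was higher and 1 was lower, beside 0.125% and 0.882% of all genes.

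Among the list genes, CDK8, the kinase of the Mediator complex, had the largest difference between 128-cell and 1-cell embryos: it was at 72.1 RPKM against 1.78 RPKM, a difference of 4.71. Its course from 1-cell to 16-cell was near that of cdk9, with 13.8 RPKM at 4-cell and 99.7 RPKM at 16-cell. Later the 2 parted: at sphere CDK8 was at 68.6 RPKM, below its 16-cell level, while cdk9 was highest there, at 137 RPKM. NELFA, a subunit of the pausing complex NELF, was at 15.8 RPKM in 128-cell against 0.326 RPKM in 1-cell embryos, and NELFB at 62.0 RPKM against 6.81 RPKM. NELFCD and NELFE, the other subunits, were at 58.0 RPKM against 18.0 RPKM and 61.5 RPKM against 65.4 RPKM, so the 4 transcripts of this complex differed in unequal measure.

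Of the PAF1 complex, which travels with the polymerase, CDC73 was at 61.2 RPKM in 128-cell against 3.40 RPKM in 1-cell embryos, RTF1 at 114 RPKM against 10.5 RPKM and LEO1 at 45.7 RPKM against 6.83 RPKM. Its other 2 listed subunits stayed within the rule. RNF20 and RNF40, the ubiquitin ligases for histone H2B that act with this complex, were at 22.5 RPKM against 1.88 RPKM and 13.5 RPKM against 0.280 RPKM. Of the BET list, which holds readers of acetylated histones, brd3a was at 93.3 RPKM against 11.6 RPKM, brd2b at 15.3 RPKM against 1.21 RPKM and BRD2 at 7.35 RPKM against 0.508 RPKM. Of the super elongation complex, ELL2 was at 24.6 RPKM against 2.69 RPKM and MLLT3 at 7.72 RPKM against 0.514 RPKM.

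The gene that was lower was eloca, an elongin C gene, at 4.10 RPKM in 128-cell against 103 RPKM in 1-cell embryos. Elongin C also serves in ubiquitin ligases, so it is not an elongation gene alone. The table holds another gene ID of that name, ELOC, at 25.6 RPKM against 48.5 RPKM. ELOB, which encodes the partner elongin B, was at 53.9 RPKM against 27.3 RPKM.

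**Figure D4:**
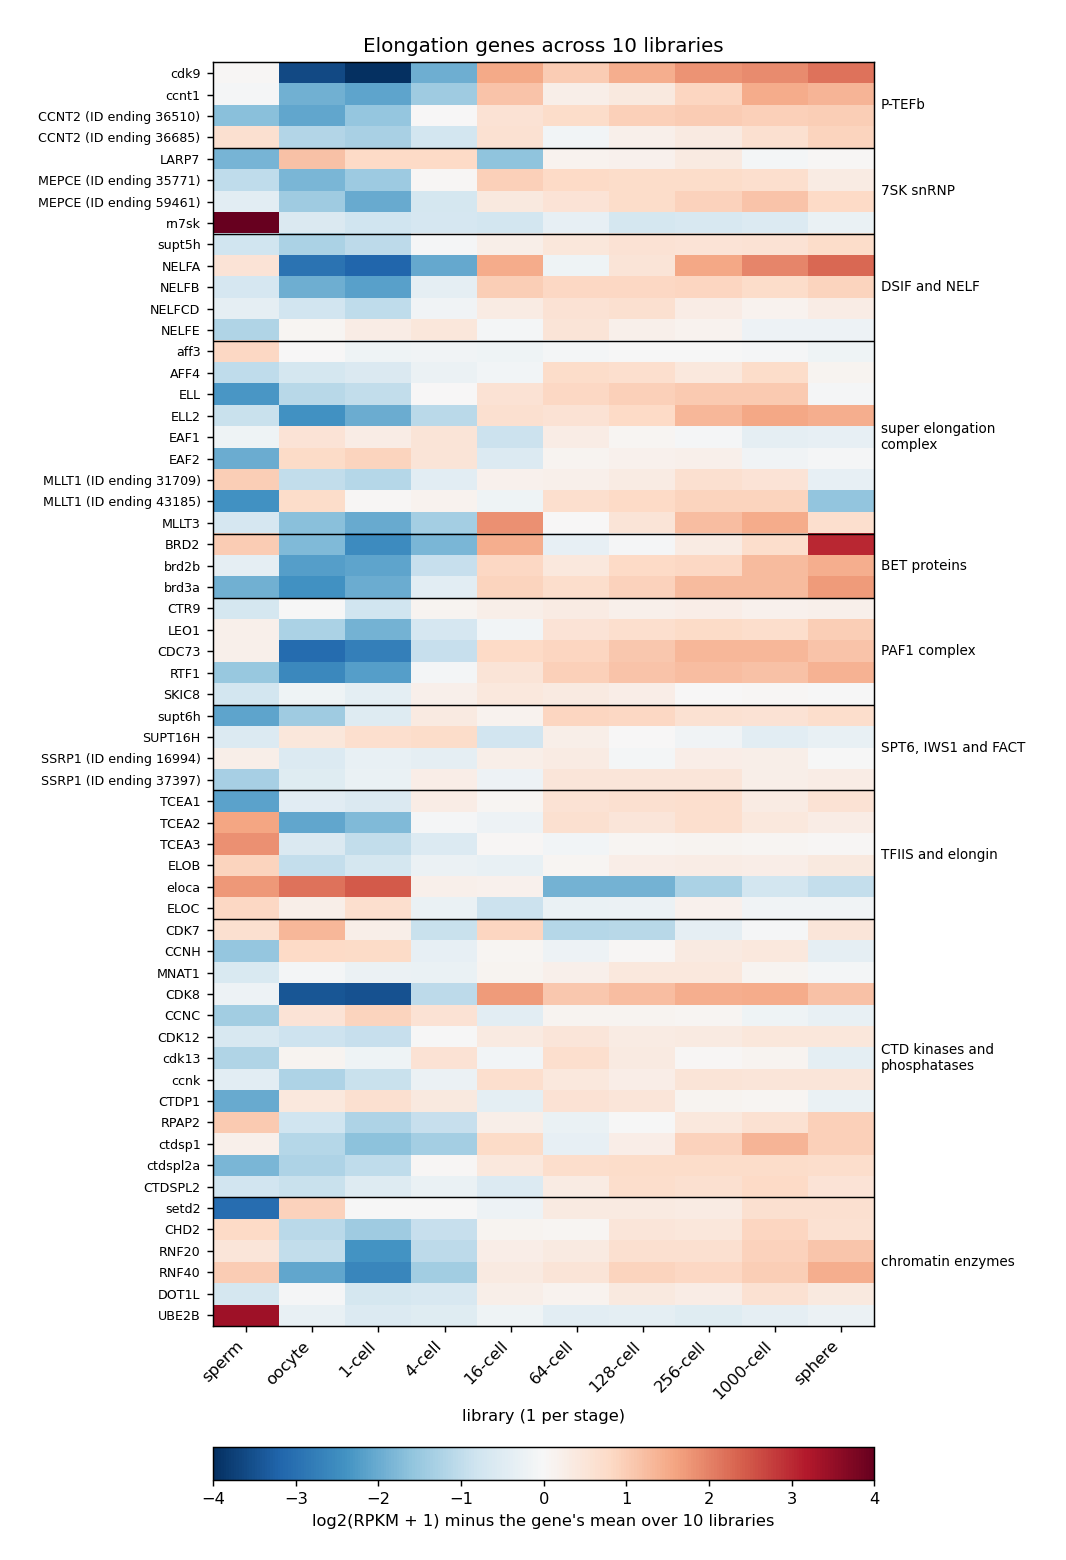
Colours show log2(RPKM + 1) minus the gene's own mean over the 10 libraries for the 5 matched members and 54 of the 55 other elongation genes at 1 RPKM or more in any library, grouped by list (rows) and in stage order (columns); colours are cut at 4 in either direction. cdk9, CDC73 and CDK8 are deep blue in the oocyte and 1-cell columns and red from 16-cell on, while eloca runs the opposite way and rn7sk and UBE2B are red in sperm.

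In sperm against oocytes, 8 of 55 other elongation genes were higher and 6 lower, beside 31.5% and 9.08% of all genes, with a median of 0.51 beside 1.22. After median ratio scaling 6 were higher and 14 lower, beside 19.6% and 17.7% of all genes, and after such scaling over genes at 5 RPKM in every library 18 and 3, beside 41.7% and 5.11%. UBE2B, a ubiquitin-conjugating enzyme, was at 29.3 RPKM in sperm against 1.33 RPKM in oocytes, TCEA2, a TFIIS gene that helps stalled polymerase, at 22.2 RPKM against 0.867 RPKM, and NELFA at 16.4 RPKM against 0.526 RPKM. Lower in sperm were setd2, the methyltransferase for histone H3 lysine 36, at 3.87 RPKM against 73.7 RPKM, and an MLLT1 gene of the super elongation complex (ENSDARG00000043185) at 3.85 RPKM against 42.2 RPKM. LARP7 was also lower, at 30.6 RPKM against 258 RPKM. The testis somatic and male germ cell markers named above stood in the same sperm library.

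In 16-cell against 4-cell embryos, the step in which cdk9 and ccnt1 differed most, 5 of 54 other elongation genes were higher and 1 lower, beside 10.7% and 0.587% of all genes, and 3 of 53 were higher and 4 lower after median ratio scaling, beside 2.62% and 6.21%. NELFA was at 32.1 RPKM in 16-cell against 1.88 RPKM in 4-cell embryos, BRD2 at 22.5 RPKM against 1.43 RPKM, MLLT3 at 20.5 RPKM against 1.40 RPKM and CDK8 at 99.7 RPKM against 13.8 RPKM. The one that was lower was LARP7. NELFA, BRD2 and MLLT3 stood lower again at 64-cell, at 9.60, 5.93 and 5.17 RPKM, the course seen in ccnt1. This course is common: 56.1% of 12749 genes were above both neighbouring stages at 16-cell.

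At sphere 1 of 54 other elongation genes was higher than at 1000-cell and 1 was lower, beside 4.06% and 0.415% of all genes. BRD2 was at 69.2 RPKM at sphere against 13.1 RPKM at 1000-cell. The MLLT1 gene ENSDARG00000043185 was at 7.81 RPKM against 47.2 RPKM. The members moved little in this step: cdk9 was 1.21-fold higher (1.19 to 1.24), supt5h 1.13-fold (1.10 to 1.15) and supt6h 1.08-fold (1.07 to 1.09), while ccnt1 was 1.11-fold lower (1.06 to 1.17). In sphere against 1-cell embryos cdk9 and ccnt1 were past the rule, beside 31.4% higher and 4.52% lower of 13769 genes, and with 5 RPKM added ccnt1 was not (1.78). Of 53 other elongation genes 20 were higher and 1 lower there. After median ratio scaling 8 of 52 were higher and 12 lower, beside 13.7% and 19.5% of all genes. In 1-cell embryos against oocytes none of 46 other elongation genes was past the rule, beside 1.06% and 3.4% of all genes.

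To use the 7 libraries from 1 to 1000 cells together, log2(RPKM + 1) was fitted with limma against log2 cell number over 12720 genes. Slopes are given per doubling of cell number. cdk9 had a slope of 0.60 (SE 0.11), above that of 99.97% of the genes fitted, and ccnt1 one of 0.34 (SE 0.07). supt5h had 0.15 (SE 0.04) and supt6h 0.11 (SE 0.04), beside a median of 0.12 over all genes. rn7sk did not reach the level needed to be fitted. Leaving out 1 library at a time, the cdk9 slope ran from 0.40 to 0.74 and that of ccnt1 from 0.27 to 0.37. Without both the 1-cell and 4-cell libraries they were 0.09 and 0.08.

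Of the other elongation genes, 33 of 54 rose and 1 fell at an adjusted p under 0.05 (limma, Benjamini-Hochberg over all 12720 genes), beside 52.7% of all genes that rose and 9.16% that fell. After median ratio scaling 16 rose and 11 fell, beside 27% and 29.6% of all genes. The 1-cell library carries much of this: without it 11 of 54 rose and none fell, beside 12.4% and 3.54% of all genes. Without the 1-cell and 4-cell libraries none of 54 passed in limma, and 0% of all genes passed in either direction. Without the 16-cell library 38 rose and 6 fell, beside 64.6% and 14.5% of all genes.

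By role, brd3a (slope 0.30, SE 0.06, adjusted p = 0.0031), brd2b (slope 0.31, SE 0.06, adjusted p = 0.0033) and BRD2 (slope 0.29, SE 0.10, adjusted p = 0.026) of the BET list rose, and of these 3 brd3a also rose without the 1-cell library. Both CCNT2 genes rose, with slopes of 0.23 and 0.17, and neither did so without it. Of the super elongation complex 6 of 8 rose, beside 52.7% of all genes, and ELL2 (slope 0.36, adjusted p = 0.0015) also did without that library. Of the PAF1 complex CDC73, RTF1 and LEO1 rose, with and without it, and the other 2 did not pass. NELFA and NELFB rose, but neither did without the 1-cell library. In the fit without that library 12.4% of all genes rose. No list was tested against these shares of all genes.

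Of the partners of 7SK, both MEPCE genes rose and LARP7 did not pass (slope -0.05, adjusted p = 0.58). Without the 1-cell library ENSDARG00000059461 of the MEPCE genes still rose and ENSDARG00000035771 did not pass. None of the 3 other genes of the SPT6 and FACT list passed, beside the supt6h slope of 0.11. Of the TFIIS and elongin list 3 of 6 rose and eloca fell (slope -0.35, adjusted p = 0.012), beside 52.7% and 9.16% of all genes. None of these list genes passed without the 1-cell library. Of the other kinases and phosphatases of the polymerase tail 7 of 13 rose, beside 52.7% of all genes, with CDK8 at a slope of 0.46 (adjusted p = 0.0059). Without the 1-cell library CDK8 did not pass (slope 0.24, adjusted p = 0.11), and 1 of the 13 did, CTDSPL2, a phosphatase-like gene. CCNC, the cyclin partner of CDK8, had a slope of -0.09 and did not pass. Of the elongation-coupled chromatin enzymes 4 of 6 rose, beside 52.7% of all genes. RNF20, RNF40 and CHD2 also did without the 1-cell library, beside 12.4% of all genes.

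**Figure D5:**
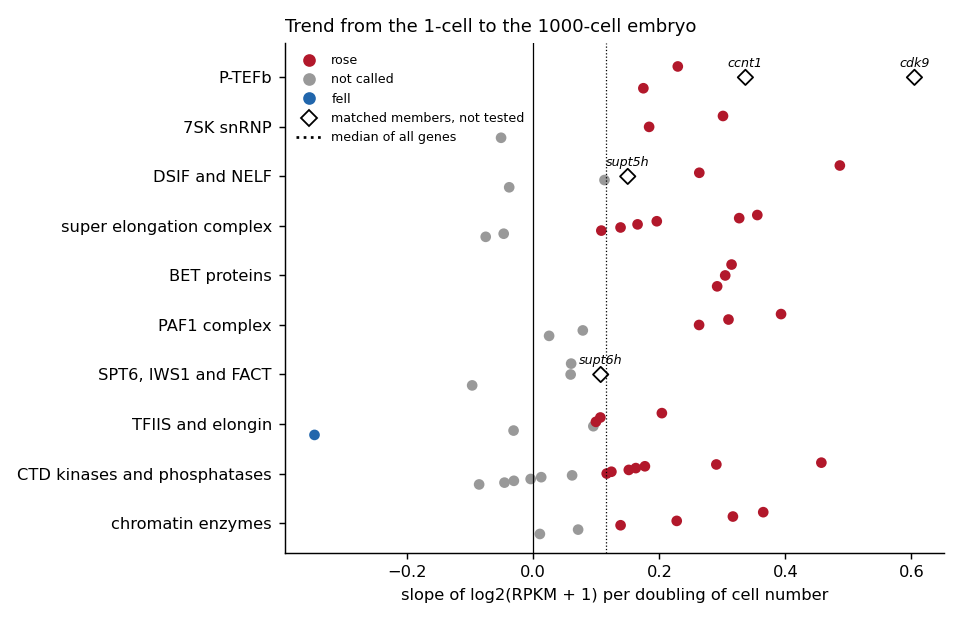
Slope of log2(RPKM + 1) per doubling of cell number over 7 libraries (horizontal axis) for 53 of the 54 other elongation genes fitted and for the members, by list (rows); red points rose and the blue point, eloca, fell at an adjusted p under 0.05 in limma, grey points did not pass, open diamonds are members, which were not tested, and the dotted line is the median of all genes. cdk9 lies farthest right at 0.60.

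The genes whose course over the 10 libraries was most like that of each member were taken by the root mean square difference of log2(RPKM + 1), each profile minus its own mean, among 9259 genes with a symbol of their own and at least 5 RPKM in any library. Nearest to cdk9 was DKC1, the pseudouridine synthase dyskerin, at a root mean square difference of 0.24: it was at 54.4 RPKM in sperm, 3.08 in oocytes, 2.37 at 1-cell, 114 at 16-cell, 150 at 128-cell and 221 RPKM at sphere. It was followed by hdgfl2 (0.33) and the arginine methyltransferase PRMT6 (0.43), then ttf1.2, RLIM, matr3l1.1, RBM15, si:dkey-33c12.4, tasorb and si:ch73-382f3.1 (0.44 to 0.49). None of the 10 belongs to the elongation lists, but these hold 61 gene IDs beside 9259 candidates, so the absence says nothing about cdk9. Of the 10, 2 genes, DKC1 and hdgfl2, were also among the nearest 10 over the 8 embryo libraries alone. Those 8 are part of the same 10 libraries, so this is no independent repeat. ccnt1 itself was farther from cdk9, at 1.08. This distance also takes in the lower level of ccnt1, since adding 1 RPKM shrinks changes of low genes. In 16-cell against 4-cell embryos, 12.6-fold for cdk9 and 10.5-fold for ccnt1 were differences of 3.47 and 2.56.

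Nearest to ccnt1 were the kinase gene MAPK7 (0.12), si:ch73-181d5.4, fam83fa, si:ch211-10d23.5 and chico, up to 0.19. rn7sk was nearest to genes with reads almost only in sperm: TCTE1, a gene of the sperm tail axoneme, at 70.2 RPKM in sperm and 0.0231 RPKM in oocytes, then si:ch211-151h10.2, si:dkey-267j14.7, si:rp71-26b20.1 and hsd3b1, a steroid hormone enzyme, at 54.7 RPKM in sperm and 0.0358 RPKM in oocytes. supt5h was nearest to stom, TMA16, ranbp1, MAP2K5 and ALG6 (0.15 to 0.16), and supt6h to rac1a, SLC37A2, TXNDC5, EPB41L5 and AEBP2 (0.18 to 0.23). Among the members themselves supt5h and supt6h lay closest to each other, at 0.49. Likeness was measured on 10 libraries that all genes share, so the names are a description.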

How the data were processed

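Per the labels' protocols, TRIzol was used for total RNA and the TruSeq RNA v2 kit for libraries, which a HiSeq2000 read from one end over 50 bp. The authors deposited RPKM on a linear scale, in 1 table with 1 column per library. Per the submitters' processing notes TopHat2 2.0.9 and the build Zv9 were used. Not given in the sources used here: counter, annotation, strand setting and the handling of reads with several matches. A kit that selects poly(A) RNA reads more molecules and longer tails alike, and those cannot be told apart.

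Reads and gene lengths were solved from the RPKM ratios between libraries for 26493 of 26495 genes that had reads in 2 or more libraries, and 99.2% of values above 0 came out whole within 0.02 reads. On simulated data of 25968 genes, 98.9% had every read number recovered. A count model was not used as a main test, since stages have 1 library each. Poisson and Clopper-Pearson 95% intervals on these reads (scipy 1.17.1) cover counting error only.

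Symbols came from a table of gene names and IDs, case ignored; a list symbol ending in a or b with no match was matched without that letter, so paralogues with a shared symbol carry their ID. Members and lists were chosen with earlier results of these data known. For each comparison, genes at 1 RPKM or more in either library were measured, the pseudocount was 1 RPKM and a difference of 2 in log2(RPKM + 1) was counted; this understates changes of low genes. The trend used limma 3.58.1 (R 4.3.3) on genes at 1 RPKM or more in at least 2 of 7 libraries, with 5 residual degrees of freedom, so departures from the line and library differences share its error.

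Genes named were the members, their paralogues and partners, list genes past the 4-fold rule in 128-cell against 1-cell, sperm against oocyte, 1-cell against oocyte or sphere against 1000-cell (at most the 4 largest per list and direction), and the genes of most like pattern. Named outside that rule, with values seen, were HEXIM2, the small RNAs, ELOC, ELOB, CCNC, CHD2, CTDSPL2, INTS8 and POLR2E. Alternatives were a pseudocount of 0.1 or 5, no filter or 5 RPKM, median ratio scaling, leaving out each library of the trend, and other baselines. One list gene is in the counts but is not reported here or drawn by row or point. No sequence is shown, since no sequence source was used here.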

Additional observations from a re-analysis of the deposited data

How the results depend on the processing

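The number of other elongation genes past the 4-fold rule takes higher and lower genes together, so a turn in direction does not show in it. With the 1-cell embryo as baseline, median ratio scaling left fewer genes higher and more lower at 128-cell and at sphere, as given above. In the trend over cell number that scaling likewise left fewer genes that rose and more that fell. The number itself stayed within 1.5 times of its value under most alternatives, with these exceptions. In 4-cell against 1-cell embryos it was 3, beside 2.15% higher and 0.355% lower of 10434 genes. It became 7 with a pseudocount of 0.1, 1 with a pseudocount of 5 and 1 after median ratio scaling. In 128-cell against 1-cell embryos the number was 18, beside 25.7% higher and 2.43% lower of all genes. It became 10 with a pseudocount of 5, 4 with the 4-cell library as the baseline and 1 with the 16-cell library as the baseline, the last chosen after seeing the data. Shares of all genes for the other baselines are given above. For the pseudocounts, and for the scaling in 4-cell against 1-cell, none is given, so these counts say nothing particular to the list. The number with a trend over cell number was 34 and ran from 11 to 44 when each of the 7 libraries was left out in turn. Without the 1-cell and 4-cell libraries, which leaves 5 libraries and was chosen after seeing the data, it was 0. The shares of all genes beside 34, 11, 44 and 0 are given with the trend above. Median ratio scaling turned the slopes of supt5h to -0.018 and supt6h to -0.064. In 1-cell against oocyte and 1000-cell against 128-cell the number stayed at 0 under each alternative run. Of the 9 member differences past the rule, 48 of 54 alternatives kept them past it and none reversed them. Those lost were cdk9 in 4-cell against 1-cell and ccnt1 in 3 comparisons, with a pseudocount of 5 or median ratio scaling. Other baselines were not among the 54. With the 4-cell library as the baseline of the 128-cell embryo, cdk9 differed by 3.40 and ccnt1 by 1.82. With the oocyte they differed by 5.07 and 2.31, and with the 16-cell library by -0.07 and -0.74, lower at 128-cell. Why these values moved was not tested beyond the construction of each alternative. No paired analysis was possible because each stage has 1 library. Few reads limit rn7sk outside sperm, with at most 11 in any library and 3 in the 4-cell library, the one with most reads. The 1-cell levels of cdk9 and ccnt1 rest on 36 and 30 reads.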

Other observations

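Lists next to the elongation genes, read for comparison, were uneven too. Of 14 genes for general initiation factors, which place the polymerase at promoters, 10 rose over cell number and 1 fell (limma, adjusted p under 0.05 over all genes), beside 52.7% and 9.16% of all genes. Without the 1-cell library 4 rose and none fell, beside 12.4% and 3.54%. In 128-cell against 1-cell embryos 8 of the 14 were higher and none lower, beside 25.7% and 2.43% of all genes, and after median ratio scaling 6 were higher and 3 lower, beside 7.71% and 16.5%. GTF2E2, a TFIIE subunit, was at 75.9 RPKM in 128-cell against 3.03 RPKM in 1-cell embryos, and ERCC2, a TFIIH helicase, at 13.3 RPKM against 0.420 RPKM. GTF2A2, a TFIIA subunit, fell in the trend and was at 51.1 RPKM against 189 RPKM.

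Of 12 Integrator genes, whose complex ends transcription near promoters and processes small nuclear RNAs, 6 rose and 2 fell, beside the same 52.7% and 9.16%. Without the 1-cell library none of the 6 passed, and INTS8 was the 1 that still fell. INTS14 was at 23.1 RPKM in 128-cell against 0.297 RPKM in 1-cell embryos and INTS3 at 34.8 RPKM against 1.57 RPKM, while INTS11, the catalytic subunit, was at 8.40 RPKM against 39.5 RPKM. Of 9 RNA polymerase II subunit genes 3 rose and 3 fell, beside the same 52.7% and 9.16%. Without the 1-cell library none of the rising genes passed, and 2 still fell, POLR2D and the POLR2E gene ENSDARG00000026183. Of all genes 12.4% rose and 3.54% fell in the fit without that library. In 128-cell against 1-cell embryos POLR2D was at 99.7 RPKM against 287 RPKM and POLR2H at 21.3 RPKM against 4.07 RPKM. The 2 largest subunits, POLR2A and POLR2B, matched no symbol and were not analysed here.

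Over the 10 libraries, 8 of 55 other elongation genes were highest in sperm (14.5%), beside 43.2% of 18972 genes at 1 RPKM or more in any library, and 9 were highest at sphere (16.4% beside 14.6%). This difference was not tested.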
